A study of Homo sapiens with 6 samples.

Results

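The 36 aminoacyl-tRNA synthetase genes were examined in 2 B cell lymphoma lines made resistant to idelalisib or to ibrutinib. The members were taken by gene symbol from the deposited tables, and the FPKM of all isoforms of a gene were summed in each library. All 36 were found among 23844 gene symbols and all passed the filter of 1 FPKM in at least 1 library, the lowest member value being 2.51 FPKM. Of these, 20 code for the cytosolic enzymes and 16, whose symbols end in 2, for the mitochondrial ones. GARS and KARS are counted as cytosolic although each supplies both compartments from a single gene. Polyadenylated RNA was sequenced from 6 cell cultures, with 1 library per group. DAUDI derives from a Burkitt lymphoma and DOHH2 from a follicular lymphoma, and both came from ATCC. Of each line there was a culture labelled WT, one resistant to idelalisib, an inhibitor of PI3 kinase delta, and one resistant to ibrutinib, an inhibitor of BTK. Both kinases act downstream of the B cell receptor. Whether a resistant culture was a clone or a pool, and whether drug was present at harvest, is not given in the sources used here. Within a line each difference compares 1 library with 1 library and carries no test.

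Aminoacyl-tRNA synthetases join each amino acid to its tRNA and so supply the ribosome with charged tRNA. Cytosolic and mitochondrial translation mostly use separate nuclear-encoded enzymes, and several cytosolic ones sit together with the scaffold proteins AIMP1, AIMP2 and EEF1E1 in the multisynthetase complex. When amino acids run short or proteins misfold, kinases that phosphorylate eIF2 alpha raise translation of the transcription factor ATF4, which acts on amino acid synthesis enzymes, amino acid transporters and many, but not all, cytosolic synthetase genes through C/EBP-ATF response elements.

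In each line the library labelled WT stood apart from the resistant ones. Across the 12337 genes tested, the WT-labelled libraries of DAUDI and DOHH2 correlated with each other at r = 0.958 and differed by 1 or more on the log2(FPKM + 1) scale in 135 genes, while each correlated with its own line's resistant libraries at r between 0.698 and 0.717. The resistant libraries of 1 line correlated at 0.943 in DAUDI and 0.968 in DOHH2. A difference between a resistant and a WT-labelled library is therefore a difference from the library labelled WT, and line identity cannot be told apart from resistance in it. B cell genes were present in all 6 libraries, with 9 or 10 of 10 markers at 1 FPKM or more, and CD3D was listed at 0 throughout, with 1 of 10 T and NK cell markers reaching 1 FPKM in each library. The 5 plasma cell markers summed to 137, 1246 and 1543 FPKM in DAUDI and 163, 1851 and 1526 FPKM in DOHH2 (in the order WT-labelled, idelalisib-resistant and ibrutinib-resistant), with SDC1, a plasma cell surface gene, listed at 0 in 3 of the 4 resistant libraries. Most of that sum in the resistant libraries was IGJ, the joining chain of antibodies, at 11.6, 931 and 1089 FPKM in DAUDI and 21.3, 1765 and 1426 FPKM in DOHH2. PRDM1, the regulator of plasma cell fate, was lower in the resistant libraries, at 71.7, 0.749 and 1.35 FPKM in DAUDI and 66.7, 0.0249 and 0.0583 FPKM in DOHH2. The 8 stromal and epithelial markers summed to 27.2 and 28.0 FPKM in the WT-labelled libraries, from 1 gene at 1 FPKM or more, and to 0.199 to 2.95 FPKM in the resistant ones. Of 9 myeloid markers, 4 and 3 reached 1 FPKM in the idelalisib- and ibrutinib-resistant DAUDI libraries (summed 23.8 and 17.4 FPKM) and 0 or 1 in the others (0.0589 to 2.22 FPKM). Of 5 erythroid markers 3 reached 1 FPKM in the WT-labelled DOHH2 library and 0 elsewhere. The part of any of these cell types in the results was not tested. In bulk RNA, fewer cells of a type and less RNA per cell cannot be told apart. Absolute depth is unknown, and relative depth read from coverage per FPKM was 0.936 to 1.04 times that of the WT-labelled DAUDI library, except 1.42 times in the ibrutinib-resistant DAUDI library.

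Cytosolic synthetase mRNA was higher in every resistant library than in either WT-labelled library when summed over the 20 genes, while mitochondrial synthetase mRNA kept within a narrow range. In the order WT-labelled, idelalisib-resistant and ibrutinib-resistant, which is kept for all triplets of values, the cytosolic FPKM summed to 995, 1576 and 2104 in DAUDI and 1034, 1438 and 1128 in DOHH2. The mitochondrial FPKM summed to 174, 171 and 166 in DAUDI and 159, 165 and 167 in DOHH2. The cytosolic sum was thus 5.73, 9.21 and 12.6 times the mitochondrial sum in DAUDI and 6.53, 8.70 and 6.76 times in DOHH2. This ratio does not depend on how libraries are scaled, and it too was higher in all 4 resistant libraries than in both WT-labelled ones. The ibrutinib-resistant library was the highest of DAUDI, and the idelalisib-resistant library was the highest of DOHH2.

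**Figure D1:**
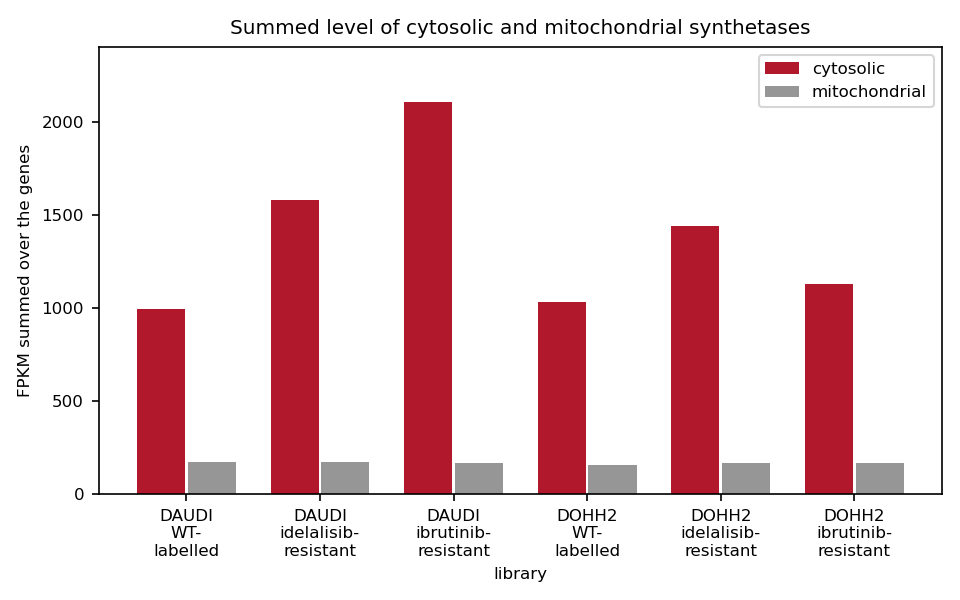
FPKM summed over the 20 cytosolic (red) and 16 mitochondrial (grey) synthetase genes in each of the 6 libraries, with 1 bar per library and no error. The cytosolic sum runs from 995 to 2104 FPKM, and the mitochondrial sum stays between 159 and 174 FPKM.

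Medians over genes gave a smaller contrast, and in DOHH2 the ibrutinib-resistant library then lay below the WT-labelled one. The cytosolic median minus the mitochondrial median of log2(FPKM + 1) was 2.37, 2.90 and 3.20 in DAUDI and 2.67, 2.80 and 2.53 in DOHH2. QARS, the glutaminyl enzyme, was the highest synthetase of both WT-labelled libraries and of the ibrutinib-resistant DOHH2 library, with 101, 101 and 105 FPKM in DAUDI and 110.5, 154 and 157 FPKM in DOHH2. WARS, the tryptophanyl enzyme, was the highest in the ibrutinib-resistant DAUDI library, and GARS, the glycyl enzyme, in both idelalisib-resistant libraries. Among mitochondrial genes IARS2, for isoleucine, was the highest in all 6 libraries (43.2, 27.6 and 30.2 FPKM in DAUDI and 35.8, 42.1 and 41.2 FPKM in DOHH2). PARS2, for proline, was the lowest mitochondrial gene in 5 of the 6 libraries (2.51, 2.92 and 3.62 FPKM in DAUDI and 3.16, 3.91 and 3.19 FPKM in DOHH2), AARS2 being lower in the idelalisib-resistant DOHH2 library. FPKM are scaled to transcript length, so these levels can be set against each other.

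**Figure D2:**
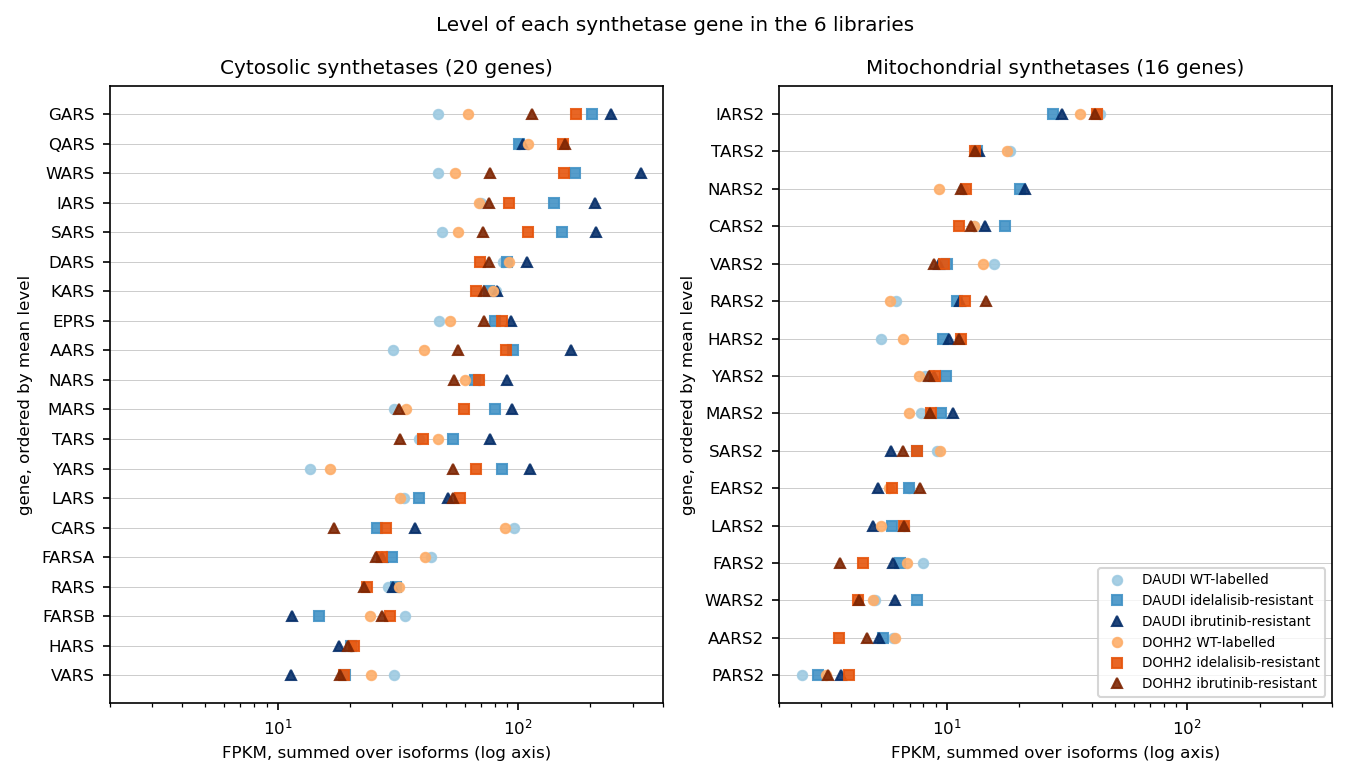
FPKM of each synthetase gene, summed over isoforms, on a log axis, with 1 point per library; blue points are DAUDI, orange and brown points DOHH2, circles WT-labelled, squares idelalisib-resistant and triangles ibrutinib-resistant. In YARS, GARS and WARS the circles lie apart to the left of the other points, in CARS they lie apart to the right, and HARS and KARS show all 6 points together.

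Against its own line's WT-labelled library, a set of cytosolic synthetases was higher in the resistant libraries, most widely in DAUDI. A gene was called when log2(FPKM + 1) differed by 1 or more. In idelalisib-resistant DAUDI 7 members were higher and 2 lower, where 15.3% and 15.8% of all genes tested were. In ibrutinib-resistant DAUDI 7 were higher and 3 lower, beside 20.2% and 14.6% of all genes. In idelalisib-resistant DOHH2 4 were higher and 1 lower (16.0% and 15.7% of all genes), and in ibrutinib-resistant DOHH2 2 were higher and 1 lower (14.9% and 15.7%). Over all 36 members the shares called were thus 19.4% and 5.56%, 19.4% and 8.33%, 11.1% and 2.78%, and 5.56% and 2.78%, which for higher calls is near the background in DAUDI and below it in DOHH2, and for lower calls is below it in all 4. At a limit of 0.5 in place of 1 the counts higher and lower were 11 and 6 (29.4% and 27.0% of all genes), 13 and 7 (36.3% and 23.9%), 10 and 4 (31.2% and 25.0%) and 6 and 5 (29.4% and 25.8%), in the same order of comparisons. All members called at 1 were cytosolic except RARS2 in ibrutinib-resistant DOHH2.

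The same 7 cytosolic genes were higher in both resistant DAUDI libraries: YARS, GARS, WARS, SARS, AARS, MARS and IARS. YARS, the tyrosyl enzyme, was measured at 13.6, 86.05 and 113 FPKM in DAUDI and 16.5, 66.9 and 53.5 FPKM in DOHH2. Its 4 resistant libraries lay well above both WT-labelled ones, and it was the only member called higher in all 4 comparisons, by 2.57 and 2.96 in DAUDI and 1.96 and 1.64 in DOHH2; 6.91% of all genes were called higher in all 4. The YARS locus (hg19, chr1:33240840-33283633) overlaps that of S100PBP, which was at 3.91, 9.05 and 13.6 FPKM in DAUDI and 3.78, 10.7 and 9.74 FPKM in DOHH2 and so was also higher in the resistant libraries; whether strand was used in quantification is not stated, and reads of overlapping genes may not be told apart.

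GARS was at 46.4, 202 and 244 FPKM in DAUDI and 61.7, 175 and 114 FPKM in DOHH2, above both WT-labelled libraries in all resistant libraries, and differed by 2.1 and 2.37 in DAUDI and 1.49 and 0.87 in DOHH2. WARS was at 46.4, 173 and 325 FPKM in DAUDI and 54.9, 156 and 76.3 FPKM in DOHH2 and spanned the widest range of FPKM of any member among the resistant libraries. SARS, which charges serine tRNA and also selenocysteine tRNA, was at 48.1, 153 and 210.1 FPKM in DAUDI and 56.01, 109.7 and 71.7 FPKM in DOHH2. In GARS, WARS and SARS the order was the same: in DAUDI the ibrutinib-resistant library was highest, and in DOHH2 the idelalisib-resistant one.

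AARS, the alanyl enzyme, was at 30.1, 95.3 and 166 FPKM in DAUDI and 40.8, 89.1 and 56.4 FPKM in DOHH2, and in DOHH2 it was called with idelalisib (1.11) and not with ibrutinib resistance (0.46). IARS, the isoleucyl enzyme, was at 70.2, 142 and 209 FPKM in DAUDI and 68.6, 91.8 and 75.6 FPKM in DOHH2; its difference in idelalisib-resistant DAUDI was 1.0, right at the limit for a call. MARS, the methionyl enzyme, was at 30.5, 79.9 and 94.5 FPKM in DAUDI and 34.3, 59.4 and 32.03 FPKM in DOHH2, so that the ibrutinib-resistant DOHH2 library fell within the range of the WT-labelled ones. The MARS locus (hg19, chr12:57881736-57910438) overlaps that of DDIT3, a stress transcription factor gene measured at 7.52, 49.3 and 70.1 FPKM in DAUDI and 8.09, 15.4 and 12.3 FPKM in DOHH2. DDIT3 was higher in all 4 resistant libraries, and its part in the MARS values was not tested.

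EPRS, which charges both glutamate and proline tRNA, and LARS, for leucine, were above both WT-labelled libraries in all 4 resistant libraries without reaching a difference of 1. EPRS was at 47.04, 79.99 and 93.1 FPKM in DAUDI and 52.2, 85.6 and 72.5 FPKM in DOHH2 and LARS at 33.6, 38.6 and 51.01 FPKM in DAUDI and 32.3, 57.5 and 53.7 FPKM in DOHH2. LARS was the one of these 2 whose differences were larger in DOHH2 than in DAUDI, 0.81 and 0.72 against 0.19 and 0.59. TARS, the threonyl enzyme, was at 38.6, 53.5 and 76.5 FPKM in DAUDI and 46.5, 40.3 and 32.3 FPKM in DOHH2, higher in resistant DAUDI (0.46 and 0.97) and lower in resistant DOHH2 (-0.20 and -0.51). In all, 8 cytosolic members and 4 mitochondrial ones had all 4 resistant libraries above both WT-labelled libraries, where 33.3% of all genes did, so 12 of 36 members is the background share. All 8 of these cytosolic genes are among 12 synthetase genes widely listed as targets of ATF4 (AARS, CARS, EPRS, GARS, IARS, LARS, MARS, NARS, SARS, TARS, WARS and YARS). The median difference of the 12 was 1.18 and 1.58 in DAUDI and 0.80 and 0.41 in DOHH2. That of the 8 other cytosolic genes was -0.051 and -0.076 in DAUDI and -0.29 and -0.20 in DOHH2. The lists were chosen with earlier results of these data known, so the overlap and these medians are not independent of the data.

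**Figure D3:**
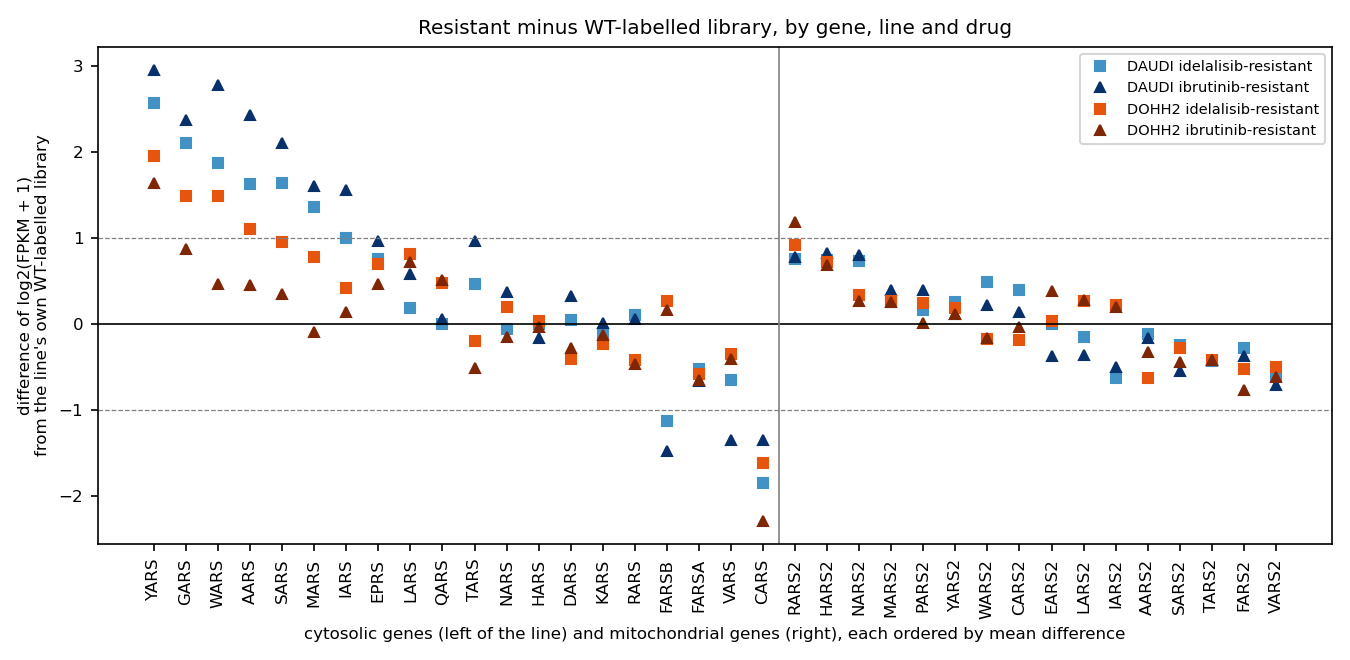
Difference of log2(FPKM + 1) between each resistant library and the WT-labelled library of its own line, for the 20 cytosolic (left) and 16 mitochondrial (right) genes; each point is 1 library pair and dashed lines mark the call limit of 1. YARS is above 1 and CARS below -1 in all 4 comparisons, and RARS2 in ibrutinib-resistant DOHH2 is the single mitochondrial point outside the dashed lines.

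CARS, the cysteinyl enzyme, was lower in every resistant library. It was at 96.3, 26 and 37.4 FPKM in DAUDI and 88.2, 28.1 and 17.2 FPKM in DOHH2, so that no resistant library came near either WT-labelled one. It was called lower in all 4 comparisons, the differences being -1.85 and -1.34 in DAUDI and -1.61 and -2.3 in DOHH2; 8.75% of all genes were called lower in all 4. All 5 of its listed isoforms were lower in each resistant library than in either WT-labelled one, except NR_036542, which is listed as non-coding and was at 3.61, 2.37 and 2.86 FPKM in DAUDI and 1.99, 1.26 and 0.519 FPKM in DOHH2.

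FARSA and FARSB code for the 2 subunits that form the cytosolic phenylalanyl enzyme, and their values did not run in parallel. FARSA was at 43.3, 29.8 and 27.05 FPKM in DAUDI and 40.9, 27.1 and 25.7 FPKM in DOHH2, lower in all 4 resistant libraries by 0.52 to 0.66. FARSB was at 33.8, 14.9 and 11.5 FPKM in DAUDI and 24.2, 29.4 and 27.1 FPKM in DOHH2, called lower in both resistant DAUDI libraries (-1.13 and -1.48) and above its WT-labelled library in DOHH2 (0.27 and 0.16). VARS, for valine, was at 30.5, 19.1 and 11.3 FPKM in DAUDI and 24.4, 18.9 and 18.2 FPKM in DOHH2 and was called lower only in ibrutinib-resistant DAUDI (-1.35). Of the cytosolic members 3 (CARS, FARSA and VARS) and of the mitochondrial members 5 had all 4 resistant libraries below both WT-labelled ones, against 25.5% of all genes.

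HARS, for histidine, stayed within 17.9 to 20.7 FPKM in all 6 libraries, and KARS, for lysine, within 66.9 to 81.9 FPKM. NARS, for asparagine, ranged from 53.9 to 89.9 FPKM, DARS, for aspartate, from 69.3 to 109 FPKM and RARS, for arginine, from 22.9 to 31.8 FPKM. For these 5 genes the resistant and WT-labelled libraries overlapped or differed in opposite directions between the lines.

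Both lines were then fitted with limma on log2(FPKM + 1), with the line as a block, so that the lines served as replicates of a state (6 libraries, 2 residual degrees of freedom). With 1 library per line and state, the p-values measure only how unlike the lines were in their differences between states. Empirical Bayes tempers that spread with the spread of all genes. Nothing in the labels makes these libraries independent replicates. Of the 36 members 5 rose and 3 fell with a limma adjusted p (Benjamini-Hochberg, over every gene tested) under 0.05. Of all genes tested 14.2% rose and 13.1% fell, so neither count is above the background share. The cytosolic genes that rose were YARS by 2.28 (SE 0.31, adjusted p = 0.0158), GARS by 1.71 (SE 0.35, adjusted p = 0.036) and EPRS by 0.72 (SE 0.17, adjusted p = 0.0481), and YARS was the only one of the 3 with a limma call under all 9 other settings. The mitochondrial genes that rose were RARS2 by 0.91 (SE 0.17, adjusted p = 0.0299) and HARS2 by 0.75 (SE 0.15, adjusted p = 0.0349). CARS fell, with a limma difference of -1.78 (SE 0.30, adjusted p = 0.0243), as did FARSA, with -0.60 (SE 0.12, adjusted p = 0.0374), and the mitochondrial VARS2, with -0.61 (SE 0.14, adjusted p = 0.0494). Of the 12 genes listed as ATF4 targets 3 rose and 1 fell, and of the 8 other cytosolic genes 0 rose (2 had an unadjusted p under 0.05 in either direction) and 1 fell. By enzyme class, 3 of 19 class I members rose and 2 fell, and 2 of 17 class II members rose and 1 fell. EPRS, among the 3, charges both glutamate and proline tRNA but was counted in class I only. All 4 resistant libraries of the 8 called genes lay on the same side of both WT-labelled libraries. That order is no separate support, since the calls were made on the same libraries. WARS, AARS, SARS, MARS and IARS did not pass in limma (adjusted p = 0.0994, 0.0953, 0.0902, 0.162 and 0.16), although their mean differences of 1.65, 1.41, 1.26, 0.91 and 0.78 were larger than that of EPRS; their standard errors were 0.55, 0.46, 0.40, 0.39 and 0.33. With any 1 library left out fewer members passed, and the called ones kept their direction. Such a fit has fewer residual degrees of freedom, so the lost calls cannot be laid to the library left out.

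The mitochondrial enzymes as a group lay close to their WT-labelled levels. Their median difference from the WT-labelled library was 0.08 and -0.028 in DAUDI and 0.11 and 0.065 in DOHH2, and 15 of the 16 were called in none of the 4 comparisons, as were 49.4% of all genes; at their low FPKM the pseudocount makes a difference of 1 harder to reach. Over all genes the medians were 0.045 and 0.18 in DAUDI and 0.077 and 0.031 in DOHH2, and rescaling by the median of ratios moved the 0.18 to -0.017. RARS2, for arginine, was at 6.17, 11.1 and 11.3 FPKM in DAUDI and 5.82, 11.9 and 14.6 FPKM in DOHH2, and its difference of 1.19 in ibrutinib-resistant DOHH2 was the one mitochondrial call. HARS2, for histidine, was at 5.32, 9.62 and 10.2 FPKM in DAUDI and 6.57, 11.5 and 11.2 FPKM in DOHH2, with all 4 differences between 0.69 and 0.83. HARS and HARS2 start from a shared region in opposite directions, their RefSeq starts lying 84 bases apart on GRCh38.p14. The level of HARS was flat where that of HARS2 was higher, and the HARS to HARS2 ratio of FPKM was 3.80, 2.10 and 1.76 in DAUDI and 3.06, 1.80 and 1.75 in DOHH2. The hg19 loci of these 2 genes in the tables overlap by 302 nt, which limits how well their reads can be told apart.

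NARS2, for asparagine, was at 11.7, 20.1 and 21.2 FPKM in DAUDI and 9.32, 12.04 and 11.4 FPKM in DOHH2, higher in resistant DAUDI by 0.74 and 0.81 and in resistant DOHH2 by 0.34 and 0.27. TARS2, for threonine, was at 18.4, 13.4 and 13.6 FPKM in DAUDI and 17.9, 13.1 and 13.1 FPKM in DOHH2, and its 4 differences lay between -0.43 and -0.41. VARS2, for valine, was at 15.8, 10.02 and 9.27 FPKM in DAUDI and 14.1, 9.75 and 8.86 FPKM in DOHH2. TARS2 and VARS2 both had their resistant libraries below their WT-labelled ones, and so did FARS2 (7.99, 6.39 and 5.97 FPKM in DAUDI and 6.86, 4.48 and 3.61 FPKM in DOHH2), for phenylalanine, SARS2 (9.07, 7.53 and 5.88 FPKM in DAUDI and 9.33, 7.49 and 6.58 FPKM in DOHH2), for serine, and AARS2 (5.98, 5.45 and 5.22 FPKM in DAUDI and 6.07, 3.57 and 4.66 FPKM in DOHH2), for alanine. The SARS2 locus overlaps that of MRPS12, a mitochondrial ribosomal protein gene at 31.1, 20.2 and 20.1 FPKM in DAUDI and 31.3, 22.1 and 19.3 FPKM in DOHH2. MRPS12 was lower in the resistant libraries as SARS2 was, and its part in the SARS2 values was not tested. CARS2, EARS2, LARS2, MARS2, WARS2 and YARS2, for cysteine, glutamate, leucine, methionine, tryptophan and tyrosine, ranged from 4.27 to 17.4 FPKM, with differences between -0.37 and 0.49.

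For 3 amino acids the cytosolic and the mitochondrial gene differed by 0.5 or more to opposite sides. For isoleucine in DAUDI IARS differed by 1.0 and 1.56 and IARS2 by -0.63 and -0.50, so that the IARS to IARS2 ratio of FPKM was 1.63, 5.14 and 6.94 in DAUDI and 1.92, 2.18 and 1.83 in DOHH2. For serine in ibrutinib-resistant DAUDI SARS differed by 2.1 and SARS2 by -0.55, and the ratio was 5.30, 20.3 and 35.7 in DAUDI and 6.0, 14.7 and 10.9 in DOHH2. For alanine in idelalisib-resistant DOHH2 AARS differed by 1.11 and AARS2 by -0.63, with ratios at 5.02, 17.5 and 31.9 in DAUDI and 6.72, 24.9 and 12.1 in DOHH2. For tyrosine, which is no such pair since YARS2 differed by 0.11 to 0.25, the ratio was 1.67, 8.70 and 12.7 in DAUDI and 2.14, 7.51 and 6.34 in DOHH2. Over all 17 pairs of a cytosolic and a mitochondrial gene, the ratio was higher in all 4 resistant libraries than in both WT-labelled ones in 7 (AARS to AARS2, EPRS to EARS2 and to PARS2, LARS to LARS2, SARS to SARS2, WARS to WARS2 and YARS to YARS2). It was lower in all 4 in another 4 pairs, those of cysteine, histidine, asparagine and arginine, and overlapped in 6. EPRS is counted with both EARS2 and PARS2, and its ratio to EARS2 was 9.33 in ibrutinib-resistant and 9.09 in WT-labelled DOHH2. Ratios of other gene pairs were not taken, so these counts have no background share beside them. The CARS to CARS2 ratio was 7.41, 1.49 and 2.60 in DAUDI and 6.81, 2.50 and 1.36 in DOHH2, and the RARS to RARS2 ratio was 4.68, 2.81 and 2.66 in DAUDI and 5.47, 1.98 and 1.57 in DOHH2. The pairs thus did not shift in 1 direction.

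Of the genes that serve both compartments, GARS rose and KARS did not pass in limma, with -0.11 (SE 0.12, adjusted p = 0.526). The KARS isoform NM_005548, whose coding length gives 597 residues, makes the cytosolic enzyme, and NM_001130089, with 625 residues, the mitochondrial one. The mitochondrial form made up 19.2%, 24.4% and 22.2% of KARS FPKM in DAUDI and 18.3%, 26.5% and 31.7% in DOHH2. Its FPKM was 15.6, 18.5 and 18.2 in DAUDI and 14.4, 17.7 and 22.8 in DOHH2, while that of the cytosolic form was 65.6, 57.1 and 63.8 in DAUDI and 64.1, 49.2 and 49.2 in DOHH2. The share of the mitochondrial form was higher in all 4 resistant libraries, and it rests on the division of reads between isoforms by Cufflinks, for which no error is used here.

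WARS had a second pattern beneath its sum. On hg19 its isoforms NM_173701 and NM_213645 begin at chr14:100842680 and NM_004184 and NM_213646 at chr14:100841927, which is 753 bases further downstream on the minus strand. Isoforms with the downstream start were at 6.21, 106 and 221 FPKM in DAUDI and 11.6, 81.0 and 36.1 FPKM in DOHH2. They made up 13.4%, 61.4% and 68.0% of WARS FPKM in DAUDI and 21.2%, 52.1% and 47.3% in DOHH2. Levels and shares by start rest on the division of reads between isoforms by Cufflinks, for which no error is used here. Isoforms with the upstream start were at 40.2, 66.8 and 104 FPKM in DAUDI and 43.3, 74.6 and 40.2 FPKM in DOHH2, so the ibrutinib-resistant DOHH2 library was below its WT-labelled library for that start. WARS is known to be induced by interferon gamma as well as by ATF4. Of 12 interferon response genes tested, 8 and 9 were called higher and 1 each lower in idelalisib- and ibrutinib-resistant DAUDI (median 2.11 and 2.69), and 0 higher and 7 lower in both resistant DOHH2 libraries (median -1.58 and -1.58). Between the resistant libraries all 12 were lower in DOHH2 than in DAUDI in limma, with a median difference of -3.4. The part of interferon in the WARS values was not tested.

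**Figure D4:**
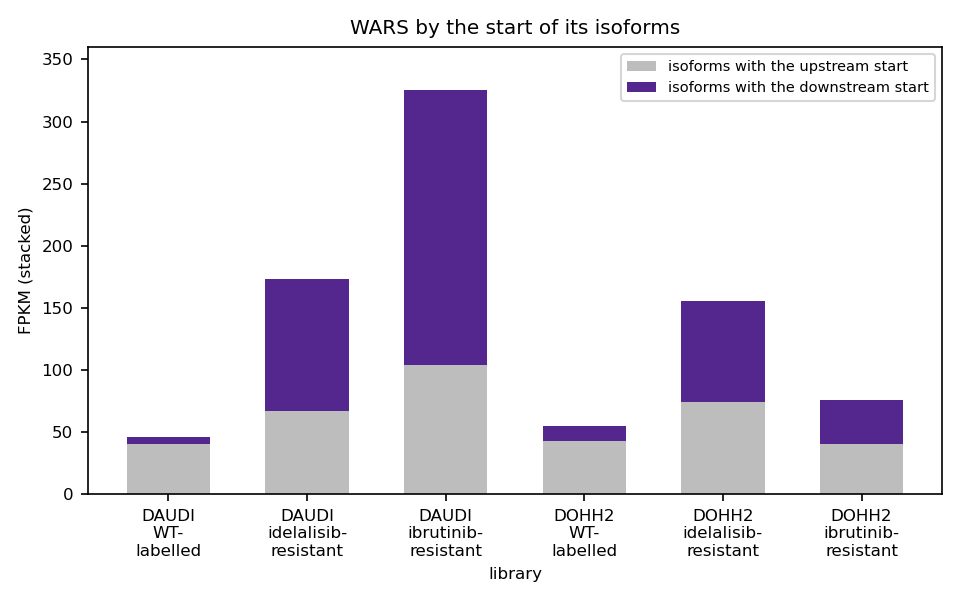
WARS FPKM in each library, stacked by the start of its isoforms, with 1 bar per library. Grey is the upstream and purple the downstream start, as reads were divided between isoforms by Cufflinks. The downstream start goes from 6.21 FPKM in the WT-labelled to 221 FPKM in the ibrutinib-resistant DAUDI library and from 11.6 to 81.0 FPKM in the WT-labelled and idelalisib-resistant DOHH2 libraries.

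Of the 15 members with more than 1 listed isoform, 9 had an isoform whose shares in the 4 resistant and both WT-labelled libraries did not overlap. The gap was over 5 percentage points in WARS, VARS2 and CARS and only 0.154 in QARS. All these shares rest on the division of reads between isoforms by Cufflinks. The share of all genes with such an isoform was not taken, so the count is not read as particular to synthetases. The VARS2 isoform NM_001167734 was at or near 0 FPKM in both WT-labelled libraries and at 3.30 and 4.27 FPKM in resistant DAUDI and 2.91 and 2.26 FPKM in resistant DOHH2, or 25.5% to 46.1% of the gene, while its isoform NM_020442 was at 15.6, 5.46 and 4.81 FPKM in DAUDI and 14.1, 5.27 and 6.60 FPKM in DOHH2. The IARS isoform NM_013417 was 24.8%, 38.8% and 39.1% of the gene in DAUDI and 22.0%, 25.1% and 21.7% in DOHH2, so its share was higher in the DAUDI libraries where IARS was called higher, and the ibrutinib-resistant DOHH2 library was no higher than the WT-labelled one. The TARS2 isoform NM_001271895 was 16.8%, 23.2% and 23.5% of the gene in DAUDI and 18.7%, 40.7% and 43.1% in DOHH2, with its FPKM between 3.08 and 5.66.

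In the multisynthetase complex, the scaffold genes were higher along with some of the enzymes. AIMP2 was at 15.6, 49.3 and 42.4 FPKM in DAUDI and 10.7, 38.8 and 26.2 FPKM in DOHH2 and rose in limma over both lines by 1.5 (SE 0.15, adjusted p = 0.00896). AIMP1 was at 15.3, 26.2 and 27 FPKM in DAUDI and 14.4, 22.4 and 21.5 FPKM in DOHH2 and rose by 0.66 (SE 0.14, adjusted p = 0.0383) in limma. EEF1E1 was at 16.6, 30.1 and 36.2 FPKM in DAUDI and 13.7, 17.5 and 16.9 FPKM in DOHH2 and did not pass in limma, with 0.63 (SE 0.22, adjusted p = 0.107). All 3 scaffold genes had their resistant libraries above both WT-labelled libraries. Of the 8 enzymes of the complex, EPRS rose and DARS, IARS, KARS, LARS, MARS, QARS and RARS did not pass, and over the 11 genes the median limma difference was 0.63, beside 0.12 over all genes tested.

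The drugs were then set against each other within each line. In DAUDI 5 synthetases (WARS, AARS, IARS, TARS and CARS) were higher by 0.5 or more in the ibrutinib-resistant than the idelalisib-resistant library. By the same limit 1 was lower (VARS, -0.70). Of all genes tested 13.4% were higher and 3.38% lower, so both counts are near the background share. In DOHH2 0 were higher by 0.5 or more, where 2.76% of all genes were (0.665% by 1 or more), and 6 were lower (WARS, MARS, CARS, AARS, GARS and SARS), with 2.08%. At the limit of 1 the only call was WARS in DOHH2 (-1.02; 0.413% of all genes were lower by 1 or more), which fell short of 1 under each of 3 rescalings of the libraries and with a pseudocount of 5. No member was called in DAUDI, where 2.2% of all genes were higher and 1.31% lower by 1 or more.

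The sign of the drug difference ran with the list a cytosolic gene belonged to. The 12 cytosolic genes listed as ATF4 targets were all higher with ibrutinib than with idelalisib resistance in DAUDI (median 0.45) and all lower in DOHH2 (median -0.48). Of the 8 other cytosolic genes 0 had this pattern, and of the 16 mitochondrial genes 5 had it; 39.8% of all genes tested did. Over all genes the median drug difference was 0.14 in DAUDI and -0.021 in DOHH2. The same 12 and 0 were counted after each of 3 rescalings of the libraries, where the list's median was 0.27 to 0.40 in DAUDI and -0.44 to -0.42 in DOHH2 and the share of all genes fell to between 25.1% and 32.8%. AARS, CARS and WARS differed by 0.5 or more both ways, as did 0.47% of all genes. WARS differed by 0.91 in DAUDI and -1.02 in DOHH2, AARS by 0.80 and -0.65, and CARS by 0.51 and -0.68. CARS, which was lower in all resistant libraries, thus shared the drug pattern of the genes that were higher. Each difference compares 1 library with 1 library, so this pattern has no replicate check. The lists were also chosen with earlier results of these data known, so the split between them is not independent of the data.

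**Figure D5:**
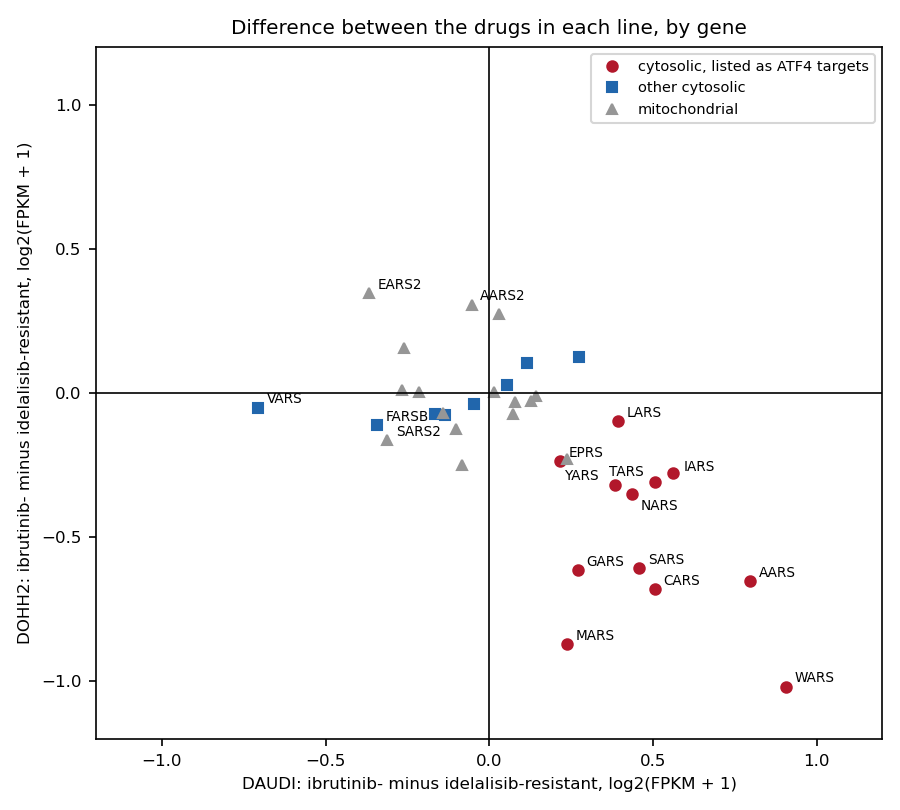
Ibrutinib-resistant minus idelalisib-resistant difference of log2(FPKM + 1) in DAUDI (x axis) and in DOHH2 (y axis) for the 36 genes; each point is 1 gene. All 12 genes listed as ATF4 targets lie in the lower right of the plot, to the right of and below 0, and none of the 8 other cytosolic genes does.

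Over both lines no difference between the drugs passed in limma for any member: 0 of 36 passed higher or lower, 0 had an unadjusted p under 0.05, and of all genes 0% passed higher and 0.00811% lower (71 had an unadjusted p under 0.05). The 12 listed genes, whose differences had opposite signs in the lines, had means over the lines between -0.32 in MARS and 0.15 in LARS, with standard errors from 0.19 in EPRS to 0.63 in WARS, beside a median of 0.24 over all genes. Whether the drug difference itself differed between the lines could not be tested, with 1 library in each group. The mitochondrial genes had medians of -0.069 in DAUDI and -0.019 in DOHH2. EARS2 had the widest split in the other direction, -0.37 in DAUDI and 0.35 in DOHH2, with 6.96, 6.96 and 5.17 FPKM in DAUDI and 5.74, 5.90 and 7.77 FPKM in DOHH2.

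Most other genes of the amino acid response had the same signs between the drugs. ATF4 itself was at 88.8, 436 and 537 FPKM in DAUDI and 149, 335 and 237 FPKM in DOHH2, above both WT-labelled libraries in all resistant ones, with the drug order of WARS and AARS in each line. Of the 23 genes tested on the amino acid response list, 22 were above 0 in DAUDI (ibrutinib minus idelalisib, median 0.60), and in DOHH2 22 were below 0 (median -0.34) and JDP2 was listed at 0 in both libraries. Of the 10 amino acid transporter genes tested, 10 were above 0 in DAUDI and 0 in DOHH2 (median 0.43 and -0.59). Of all genes tested 70.03% were above 0 in DAUDI and 39.3% in DOHH2, so a value above 0 in DAUDI was common. In limma over both lines 6 of the 23 rose and 3 fell from WT-labelled to resistant libraries, beside 14.2% and 13.1% of all genes tested. The count that fell is thus near the background share. Those that rose were ALDH18A1, ASNS, PSPH, PYCR1, SESN2 and TRIB3, and those that fell ATF3, ATF5 and VLDLR. ATF4 itself did not pass in limma. Of the 10 transporters SLC43A1 and SLC7A1 rose and SLC7A5 fell in limma, with 2.1 (SE 0.47, adjusted p = 0.0437), 1.29 (SE 0.29, adjusted p = 0.0452) and -1.19 (SE 0.22, adjusted p = 0.0283). PYCR1, an enzyme of proline synthesis, rose by 3.51 (SE 0.31, adjusted p = 0.0075) and ASNS, asparagine synthetase, by 2.62 (SE 0.25, adjusted p = 0.00834) in limma. ASNS was at 12.5, 102 and 105 FPKM in DAUDI and 20.1, 127 and 82.6 FPKM in DOHH2, so it had the drug order of ATF4 in both lines, with little difference between the drugs in DAUDI. ATF5, another transcription factor of this list, fell, with a limma difference of -3.84 (SE 0.52, adjusted p = 0.0156), and so did ATF3, with -4.65 (SE 0.45, adjusted p = 0.00871), so the list did not move one way. Of 6 genes for eIF2 alpha, its kinases and their sensors, only EIF2AK3, the kinase PERK of the endoplasmic reticulum, rose in limma, by 2.42 (SE 0.37, adjusted p = 0.0201). EIF2AK3 was at 5.70, 52.6 and 57.8 FPKM in DAUDI and 5.72, 26.3 and 18.6 FPKM in DOHH2. EIF2AK4, the amino acid sensing kinase GCN2, stayed between 7.01 and 12.3 FPKM.

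The promoters of the listed synthetases were searched for the C/EBP-ATF response element, spelled TGATGNAA or, on the other strand, TTNCATCA, in 300-base RefSeq windows around transcription starts on GRCh38.p14. Windows were given for 30 of the 36 members and not for DARS, LARS, VARS, YARS, AARS2 and VARS2. The element was found in 7 of 10 listed genes with a window (AARS, CARS, GARS, IARS, MARS, NARS and TARS), in 0 of 6 other cytosolic genes and in 1 of 14 mitochondrial genes (YARS2). Of the members' 39 windows 20.5% held it, beside 3.62% of 35116 windows of all genes. Some genes have more than 1 window, so counts by gene and shares by window are not alike. The list is one of known ATF4 targets, and ATF4 acts through this element, so the 7 of 10 is not independent of the list. The stretches below show the element, in capitals, for genes that were higher (AARS, GARS, IARS and MARS), for CARS, which was lower in all resistant libraries, and for YARS2, the one mitochondrial gene with a match; each reads 5′ to 3′ along the gene's strand.
AARS: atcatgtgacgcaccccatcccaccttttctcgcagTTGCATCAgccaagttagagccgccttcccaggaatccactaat
GARS: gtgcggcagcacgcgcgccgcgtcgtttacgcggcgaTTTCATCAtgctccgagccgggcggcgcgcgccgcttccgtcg
IARS: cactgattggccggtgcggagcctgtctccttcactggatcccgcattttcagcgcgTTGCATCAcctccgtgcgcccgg
MARS: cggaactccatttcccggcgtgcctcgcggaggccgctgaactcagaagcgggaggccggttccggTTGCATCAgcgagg
CARS: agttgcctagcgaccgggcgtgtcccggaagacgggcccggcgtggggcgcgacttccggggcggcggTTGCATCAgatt
YARS2: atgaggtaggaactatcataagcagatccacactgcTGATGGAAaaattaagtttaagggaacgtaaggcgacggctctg
They lie at chr16:70289650-70289729 (minus strand), chr7:30594808-30594887 (plus), chr9:92293688-92293767 (minus), chr12:57487998-57488077 (plus), chr11:3057414-3057493 (minus) and chr12:32756051-32756130 (minus). The first base of the element is at position -187 in AARS, -33 in GARS, -13 in IARS, -4 in MARS, -2 in CARS and -197 in YARS2, counted from the transcription start. The element was thus present both in genes that were higher and in CARS, and EPRS, SARS and WARS, which have a window with no match to these letters, were also among the genes that shared the drug pattern. A match is a description of the letters, and binding was not measured.

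The resistant libraries also differed between the lines, with the drugs serving as replicates of a line (4 libraries, 2 residual degrees of freedom). In limma 3 members were higher and 2 lower in DOHH2 than in DAUDI, beside 13.1% and 14.2% of all genes tested. Both counts are below the background share. FARSB was higher by 1.05 (SE 0.16, adjusted p = 0.0244), QARS by 0.60 (SE 0.076, adjusted p = 0.0178) and IARS2 by 0.52 (SE 0.089, adjusted p = 0.0315) in limma. NARS2 was lower, with a limma difference of -0.77 (SE 0.096, adjusted p = 0.0171), and RARS, for arginine, with -0.39 (SE 0.081, adjusted p = 0.0461). RARS was at 28.9, 31.1 and 30.1 FPKM in DAUDI and 31.8, 23.5 and 22.9 FPKM in DOHH2. In all 5 genes both resistant libraries of 1 line lay beyond both of the other. The calls were made on these same 4 libraries, so that separation is no further support. In IARS, SARS, TARS and YARS too the DAUDI libraries were above the DOHH2 ones, by 1.04, 1.0, 0.81 and 0.71, but they did not pass (limma adjusted p = 0.0588, 0.088, 0.0859 and 0.0819). Without either resistant DOHH2 library fewer members passed, and with the drug as a block only FARSB did. These fits have fewer residual degrees of freedom, which alone can lose calls.

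Between the WT-labelled libraries no member differed by 1 or more, nor by 0.5 or more; 0.608% and 0.486% of all genes were higher and lower in DOHH2 by 1 or more, and 2.19% and 2.16% by 0.5 or more. The widest differences were 0.43 in AARS and 0.40 in GARS, higher in DOHH2, and -0.46 in FARSB and -0.31 in VARS, lower in DOHH2. After these came TARS and YARS, with 0.26 and 0.26, and NARS2 and LARS2, with -0.30 and -0.28. FARSB, IARS2, QARS and NARS2, which separated the lines among resistant libraries by 0.52 to 1.05 in size, differed by -0.46 to 0.13 between the WT-labelled ones. RARS, also called between the lines, differed by -0.39 among the resistant and by 0.14 between the WT-labelled libraries.

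Beyond the synthetases, the machinery that uses charged tRNA was mixed. Of 5 cytosolic elongation factor genes 2 rose in limma over both lines, EEF2 by 1.88 (SE 0.15, adjusted p = 0.00638) and EEF1D by 1.65 (SE 0.24, adjusted p = 0.0188), and 3 did not pass. Of 12 mitochondrial translation genes MTRF1L, a release factor, rose by 0.78 (SE 0.18, adjusted p = 0.0451) in limma, and GFM1 and GFM2, elongation and recycling factors, fell, with -0.86 (SE 0.15, adjusted p = 0.025) and -0.59 (SE 0.14, adjusted p = 0.0467) in limma, while 9 did not pass. Of 10 genes of tRNA maturation 0 passed in limma (2 at an unadjusted p under 0.05). The list medians in limma were 0.17 for cytosolic elongation, 0.13 for mitochondrial translation and 0.12 for tRNA maturation, beside 0.22 for the cytosolic and 0.045 for the mitochondrial synthetases and 0.12 over all genes.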

How the data were processed

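Polyadenylated RNA of 6 cultures was sequenced, 1 library each, with a directional kit per the labels' protocols. Per the submitters' processing notes, the authors used bcl2fastq, cutadapt, TopHat2 and Cufflinks on hg19; no tool version and no use of strand is given in the sources used here. In the deposited tables, per the file headers, the authors give FPKM per isoform (fragments scaled to transcript length and to library size), bounds of the FPKM, which were not used, isoform length in nucleotides and a coverage signal, used only for relative depth. Counts were not used here, so absolute depth, counting error and floors are unknown.

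FPKM were summed per gene symbol, without 528 isoforms that lacked a gene name and 10 genes of failed estimate, and log2(FPKM + 1) was taken, which understates changes of low genes. The 12337 genes that reached 1 FPKM in any library were kept. Libraries were grouped by the line and resistance of their labels. Within a line, differences of 1 or more were called, with no test. limma 3.58.1 (R 4.3.3) used empirical Bayes with trend, two-sided tests and Benjamini-Hochberg adjustment over all 12337 genes, and was tested on simulated data. The members, lists and comparisons were chosen with earlier results of these data known. All 36 members may be named; values are given for those called in a comparison, the 4 highest and 4 lowest of each, the highest and lowest of each compartment, pairs that moved apart, GARS and KARS, and up to 4 genes of each further list. ATF4, ASNS, EIF2AK4, the isoform shares, the overlapping genes and the second reference described under the settings were chosen after seeing the data. Other settings were pseudocounts of 0.1 and 5, other filters, 3 rescalings, other models, left-out libraries, a call at 0.5, the top isoform, and leaving out GARS and KARS.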

Additional observations from a re-analysis of the deposited data

Results flagged for a closer look

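The difference between the drugs (ibrutinib- minus idelalisib-resistant) had opposite signs in the lines, and the lines lay 0.5 or more apart, for 11 members. DOHH2 minus DAUDI was -1.92 for WARS, -1.45 for AARS, -1.19 for CARS, -1.11 for MARS, -1.07 for SARS, -0.88 for GARS, -0.84 for IARS, -0.82 for TARS, -0.79 for NARS and -0.70 for YARS, and 0.71 for the mitochondrial EARS2. The median of the 12 genes listed as ATF4 targets differed by -0.93 and that of the 20 cytosolic genes by -0.53. Each value rests on 4 libraries, 1 per group, and the difference was not tested.

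Resistant minus WT-labelled differences had opposite signs in the lines, with both drugs on the same side within a line, for 7 members. DOHH2 minus DAUDI, each as the mean of both drugs, was 1.52 for FARSB, 0.78 for IARS2 and 0.53 for LARS2, and -1.07 for TARS, -0.53 for DARS, -0.52 for RARS and -0.52 for WARS2. These differences between the lines were not tested either, since each line has 1 WT-labelled library that both of its drugs share.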

How the results depend on the processing

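With 1 library per group no replicate error exists within a line, and limma had 2 residual degrees of freedom. Fits with a library left out or with the drug as a block had fewer, which alone can lose calls. Without counts, absolute depth is unknown, so limits that depth sets could not be given. No paired analysis was possible because each group has a single library; the line entered limma as a block. No member called within a line or by limma changed its direction in any setting that was run; the cytosolic minus mitochondrial median of differences in ibrutinib-resistant DOHH2, which lay near 0, is read in no direction. The cause of the changes below was not tested unless named.

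A call at a difference of 0.5 gave, by its construction, 11 higher and 6 lower in idelalisib-resistant DAUDI, 13 and 7 in ibrutinib-resistant DAUDI, 10 and 4 in idelalisib-resistant DOHH2 and 6 and 5 in ibrutinib-resistant DOHH2, and between the drugs 5 and 1 in DAUDI and 6 lower in DOHH2. A pseudocount of 5 gave 1 member lower in idelalisib-resistant DAUDI, 1 higher in ibrutinib-resistant DOHH2 and 0 lower between the drugs in DOHH2; the 3 rescalings (median of ratios, upper quartile, equal FPKM sums) also gave 0 there. With the WT-labelled library of the other line as reference, 1 member was lower in idelalisib-resistant DAUDI. A pseudocount of 5 lowered the cytosolic minus mitochondrial level to 1.95, 2.51 and 2.78 in DAUDI and 2.19, 2.39 and 2.13 in DOHH2, by its construction.

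In limma, 3 members rose over both lines with no filter or after median of ratios, and 1 fell without the trend. Left-out libraries gave 0 to 2 higher and 0 to 1 lower members (0 to 1665 and 0 to 1753 of all genes). EPRS lost its call with a pseudocount of 5, no filter, median of ratios or no trend, GARS with no filter, RARS2 after median of ratios, FARSA without the trend, and VARS2 with a pseudocount of 5 or without the trend; YARS, CARS and HARS2 passed in all 9 settings that kept every library, at an adjusted p up to 0.032, 0.045 and 0.043. Between the drugs 0 genes were lower with no filter or with only the 4 resistant libraries, 1 was higher with a filter of 5 FPKM, and left-out libraries gave 0 to 0 members and genes. Between the lines 1 member was lower with a pseudocount of 5 or a filter of 5 FPKM, 4 after median of ratios or upper quartile and 10 with all 6 libraries in the fit; with the drug as a block 1 was higher and 0 lower (868 and 1046 of all genes), and left-out libraries gave 0 to 3 higher and 0 to 1 lower (455 to 1042 and 284 to 1945 of all genes). Under the 5 FPKM filter PARS2 was not tested.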
